A study of Mus musculus with 9 samples.

Results

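Il1b, Tnf and Ptgs2 are 3 of the 84 genes on a PCR array of wound healing, and they were chosen by name, as 2 primary inflammatory cytokines and the prostaglandin enzyme that both induce. The array was run on colon RNA of female C57bl6J mice, 8 to 9 weeks of age, in 3 groups. DSS+DPG mice drank 3% dextran sodium sulfate (DSS), a polymer that injures the colonic epithelium, for 7 days and received 8 mg/kg/day dipotassium glycyrrhizate (DPG), a salt of glycyrrhizin from liquorice root, by oral gavage. DSS mice drank 3% DSS for 7 days, and untreated (UN) mice drank plain water. The methods name no gavage for the DSS and UN mice, so the gavage and DPG cannot be told apart. RNA of 5 animals was pooled in each group, and each pool was run on 3 arrays, so the SD and every p-value measure the spread between repeats of 1 pool and not that between mice. All 3 genes had a Ct below 35 on all 9 arrays.

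Il1b encodes interleukin-1 beta, which macrophages, monocytes and neutrophils make as an inactive precursor that the inflammasome cleaves before release. Tnf encodes tumor necrosis factor, a cytokine of the same cells and of T cells, which is shed from the cell surface and is the target of antibody drugs in inflammatory bowel disease. Receptors of both cytokines switch on NF-kB and MAP kinases in epithelial, stromal and myeloid cells. One of the genes they induce is Ptgs2, whose product, the inducible cyclooxygenase, carries out the committed step from arachidonic acid to prostaglandins. In the colon, prostaglandin made by this enzyme is known both as a mediator of inflammation and as a support for epithelial repair.

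The promoters of the 3 genes are shown as a description. All 3 genes had their highest level in DSS colon, but with DPG Il1b and Tnf stayed above UN and Ptgs2 lay below it. A link between the motifs and these changes was not tested. Each window of 300 bases runs from 250 bases before to 50 bases after the RefSeq start of the gene (build GRCm38.p6), 5' to 3' on the strand of the gene, and capitals mark the motif matches. The Il1b window (gene ID 16176) is chr2:129371090-129371389 on the minus strand, the Tnf window (gene ID 21926) chr17:35201958-35202257 on the minus strand, and the Ptgs2 window (gene ID 19225) chr1:150099781-150100080 on the plus strand.
Il1b: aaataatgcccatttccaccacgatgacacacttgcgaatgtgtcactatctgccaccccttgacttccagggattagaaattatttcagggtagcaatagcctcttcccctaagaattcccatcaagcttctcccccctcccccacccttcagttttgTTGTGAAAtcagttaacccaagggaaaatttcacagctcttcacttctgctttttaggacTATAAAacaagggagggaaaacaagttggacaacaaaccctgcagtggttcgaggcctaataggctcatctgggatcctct
Tnf: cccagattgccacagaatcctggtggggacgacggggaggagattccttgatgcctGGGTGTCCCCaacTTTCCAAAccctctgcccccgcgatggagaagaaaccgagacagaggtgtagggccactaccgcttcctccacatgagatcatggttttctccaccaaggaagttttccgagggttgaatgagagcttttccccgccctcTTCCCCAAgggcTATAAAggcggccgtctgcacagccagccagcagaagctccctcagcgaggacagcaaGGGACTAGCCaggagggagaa
Ptgs2: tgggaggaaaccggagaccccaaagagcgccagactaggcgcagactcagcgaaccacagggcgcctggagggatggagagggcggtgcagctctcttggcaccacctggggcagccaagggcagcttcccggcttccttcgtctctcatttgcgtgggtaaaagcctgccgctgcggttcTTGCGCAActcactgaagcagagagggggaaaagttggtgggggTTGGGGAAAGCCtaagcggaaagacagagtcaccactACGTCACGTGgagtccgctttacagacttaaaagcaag
Of 6 motifs searched on both strands, the Tnf window matched the NF-kB motif (GGG, any 5 bases, CC) at GGGTGTCCCC, 194 to 185 bases before the start, and at GGGACTAGCC, 30 to 39 bases after it. The Ptgs2 window matched it at GGGGAAAGCC, 23 to 14 bases before the start, and the Il1b window did not match it. Sequence outside the windows was not searched, so a missing match says nothing about sites elsewhere. All 3 windows matched the C/EBP motif TTNNGNAA. It lay at TTGTGAAA, 91 to 84 bases before the start of Il1b, at TTTCCAAA (181 to 174) and TTCCCCAA (41 to 34) before that of Tnf, and at TTGCGCAA (69 to 62) and TTGGGGAA (25 to 18, overlapping the NF-kB match) before that of Ptgs2. TATAAA lay 31 to 26 bases before the start of Il1b and 29 to 24 bases before that of Tnf. The Ptgs2 window held the CRE half-site ACGTCA, 13 to 18 bases after the start, and the E-box CACGTG, 17 to 22 bases after it, which overlap. No window matched the AP-1 motif TGANTCA. Among 27025 mouse promoters of the same length, 50.4% matched the NF-kB motif, 40.7% the C/EBP motif, 14.2% TATAAA, 7.93% the AP-1 motif, 7.64% the CRE half-site and 7.24% the E-box, so the first 2 motifs are common and a match is a description only.

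Each well gave a Ct, the cycle at which its product crossed a threshold, so that a Ct lower by 1 stands for a doubling of the template. Delta Ct is the difference between the Ct of a gene and the average of 5 housekeeping genes on its array, and a log2 change is the difference in minus delta Ct. Over the 84 genes the median Ct lay between 29.6 and 29.685 on the DSS+DPG arrays, between 26.57 and 26.765 on the DSS arrays and between 27.835 and 27.89 on the UN arrays. Replicate 3 lay between the other 2 arrays of its group for 66 of 81 genes (81.5%) in DSS+DPG, for 72 of 83 (86.7%) in DSS and for 58 of 81 (71.6%) in UN, while replicates 1 and 2 did so for 5 to 15 genes. The cause was not tested, and the spread between arrays may be smaller than that of 3 independent runs. Without replicate 3 in every group, a setting added after the data were seen, the 3 genes kept the direction of each of their 9 changes, and the highest adjusted p among them was 0.00774 in limma, for Ptgs2 in DSS+DPG against UN.

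Il1b was the most strongly raised of the 3 genes in DSS colitis, was partly lower again with DPG, and stayed above the untreated level. Its raw Ct was 28.76, 28.72 and 28.71 on the 3 DSS+DPG arrays, 23.19, 23.06 and 23.11 on the DSS arrays and 30.16, 30.16 and 30.17 on the UN arrays. The DSS arrays crossed the threshold earliest, the UN arrays latest, and no array of one group overlapped another group. Relative to the UN mean, the level of Il1b after the housekeeping reference was 7.22, 7.32 and 7.44 in DSS+DPG, 156.1, 153.9 and 154.3 in DSS and 0.995, 0.999 and 1.01 in UN. The mean delta Ct was 5.29 ± 0.022 in DSS+DPG, 0.89 ± 0.011 in DSS and 8.16 ± 0.0092 in UN (SD, n = 3 arrays each). The repeats of a pool thus differed by far less than the groups did. Between DSS and UN the log2 change was 7.27 (standard error 0.025, 95% CI 7.22 to 7.33), a 154.8-fold rise (adjusted p = 2.95e-14 in limma) and the 4th highest of 84. With DPG, Il1b fell by 4.40 against DSS (standard error 0.025, 95% CI -4.46 to -4.34), which is 21.1-fold lower (adjusted p = 1.17e-12), the 6th lowest change of 84. Against UN, Il1b in DSS+DPG was 7.33-fold higher (log2 change 2.87, 95% CI 2.82 to 2.93, adjusted p = 2.09e-11), the 5th highest of 82 genes tested.

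Tnf moved in the same directions as Il1b, over a narrower range. Its raw Ct was 29.79, 30.01 and 29.89 in DSS+DPG, 27.12, 27.02 and 27.08 in DSS and 30.6, 30.49 and 30.51 in UN. The raw Ct of Tnf in DSS+DPG lay close below that in UN, with no overlap. Relative to the UN mean, the Tnf level was 4.57, 3.87 and 4.25 in DSS+DPG, 13.2, 12.8 and 12.7 in DSS and 0.947, 1.03 and 1.03 in UN, and the mean delta Ct was 6.46 ± 0.12 in DSS+DPG, 4.84 ± 0.031 in DSS and 8.53 ± 0.068 in UN (SD, n = 3 arrays each). DSS stood highest, DSS+DPG between and UN lowest, all apart. The log2 change between DSS and UN was 3.69 (standard error 0.064, 95% CI 3.54 to 3.84), or 12.9-fold (adjusted p = 5.62e-10 in limma), the 11th highest of 84. With DPG, Tnf fell by 1.61 against DSS (standard error 0.064, 95% CI -1.77 to -1.46), or 3.06-fold lower (adjusted p = 5.19e-08), the 36th lowest change of 84. This fall did not hold when the median Ct of the 84 genes was the reference, where the log2 change was 0.16 (adjusted p = 0.0665). Against UN, Tnf in DSS+DPG was 4.22-fold higher (log2 change 2.08, 95% CI 1.93 to 2.23, adjusted p = 2.05e-08), the 10th highest of 82.

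Ptgs2 was raised in DSS colitis somewhat less than Tnf, and in DSS+DPG it lay below the untreated level. Its raw Ct was 31.07, 30.59 and 30.89 in DSS+DPG, 25.59, 25.46 and 25.51 in DSS and 28.6, 28.58 and 28.59 in UN. Here the DSS+DPG arrays crossed the threshold latest, and they were the most scattered. Relative to the UN mean, the Ptgs2 level was 0.489, 0.673 and 0.552 in DSS+DPG, 9.94, 9.80 and 9.83 in DSS and 0.985, 1.00 and 1.01 in UN, and the mean delta Ct was 7.41 ± 0.23 in DSS+DPG, 3.29 ± 0.011 in DSS and 6.59 ± 0.019 in UN (SD, n = 3 arrays each). The order was DSS, UN and then DSS+DPG, without overlap. The log2 change between DSS and UN was 3.30 (standard error 0.10, 95% CI 3.06 to 3.54), or 9.85-fold (adjusted p = 1.48e-08 in limma), the 13th highest of 84. The fit shares a spread for each gene across the 3 groups. The scatter of the DSS+DPG arrays thus also enters the interval of Ptgs2 in DSS against UN. With DPG, Ptgs2 fell by 4.12 against DSS (standard error 0.10, 95% CI -4.36 to -3.88), or 17.4-fold lower (adjusted p = 3.09e-09), the 7th lowest of 84. Against UN, Ptgs2 in DSS+DPG was 1.77-fold lower (log2 change -0.82, 95% CI -1.06 to -0.58, adjusted p = 8.24e-05), the 37th lowest of 82. Because the samples are whole tissue, fewer cells that express a gene and less of its RNA per cell cannot be told apart for any of the 3 genes.

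**Figure D1:**
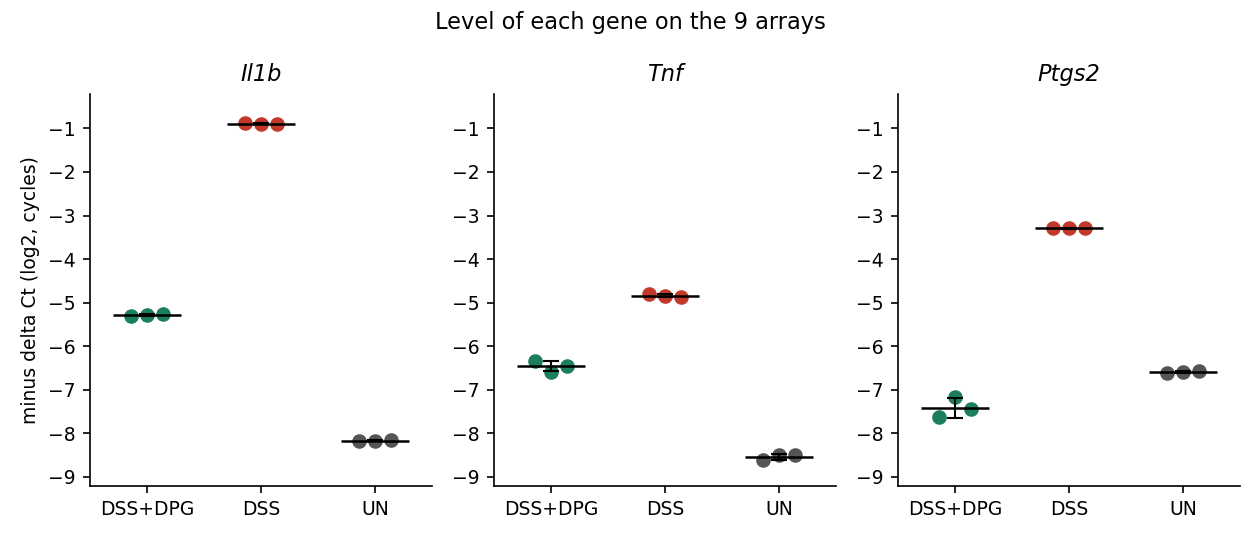
Minus delta Ct (log2, in cycles) of Il1b, Tnf and Ptgs2 on each of the 9 arrays, with DSS+DPG, DSS and UN from left to right; points are arrays, long bars the mean and error bars the SD of 3 arrays. DSS was highest for all 3 genes, and DSS+DPG lay above UN for Il1b and Tnf and below UN for Ptgs2.

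Most genes of the array changed in each comparison, so the calls alone do not set the members apart. In DSS against UN, 61.9% of the 84 genes were called higher and 29.8% lower, and in 95.2% the arrays of both groups did not overlap, against 3 of 3 members higher and without overlap. In DSS+DPG against DSS, 13.1% were called higher and 76.2% lower, and 90.5% did not overlap, against 3 of 3 members lower. In DSS+DPG against UN, 22.0% of 82 genes were called higher and 69.5% lower, and 93.9% did not overlap. There Il1b and Tnf were among the minority above UN and Ptgs2 among the majority below it. The median log2 change of the panel was 0.71 in DSS against UN, -1.30 in DSS+DPG against DSS and -0.69 in DSS+DPG against UN. The fall of Tnf with DPG was thus near that of the middle gene of the array, while those of Il1b and Ptgs2 were well beyond it. The split of the panel depends on the reference. Taking the panel's median Ct instead, 21 genes were higher and 51 lower in DSS against UN, 48 were higher and 25 lower in DSS+DPG against DSS, and 25 were higher and 47 lower in DSS+DPG against UN.

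The 5 housekeeping genes did not hold one Ct across the groups, and this moves every log2 change. Their mean Ct was 23.4 in DSS+DPG, 22.2 in DSS and 22.0 in UN. Relative to DSS, all 5 had a later Ct in DSS+DPG, from 0.39 cycles for the chaperone gene Hsp90ab1 to 1.71 cycles for B2m, the light chain of class I histocompatibility molecules. In DSS against UN, B2m came 1.10 cycles earlier and Hsp90ab1 1.08 cycles later. By exact two-sided permutation tests p was 0.1 for each of these shifts, and no lower p is possible with 3 arrays per group. The mean delta Ct that the authors deposited rests on another reference, which equals the geometric mean Ct of Itga3, Mif and Hsp90ab1 in all 3 groups (24.9 in DSS+DPG, 24.5 in DSS and 23.8 in UN), and not on the 5 genes the methods name.

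Each member was therefore computed under 15 references. In DSS against UN the log2 change of Il1b ran between 5.83 and 8.13, that of Tnf between 2.25 and 4.54 and that of Ptgs2 between 1.86 and 4.15. All 3 genes were higher in DSS under every one. Between DSS+DPG and DSS the change of Il1b ran between -5.61 and -2.63 and that of Ptgs2 between -5.33 and -2.35. Tnf ran between -2.82 and 0.16 and passed the test under 14 of the 15 references, in each of those as a fall. Relative to UN, DSS+DPG values of Il1b ran between 1.43 and 3.20, Tnf between 0.64 and 2.41 and Ptgs2 between -2.26 and -0.49. Il1b and Tnf above UN and Ptgs2 below it thus held, and passed the test, under all 15 references, while the sizes did not hold. With raw Ct and no reference, Il1b in DSS+DPG was 1.43 above UN on the log2 scale and Tnf 0.64 above it.

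**Figure D2:**
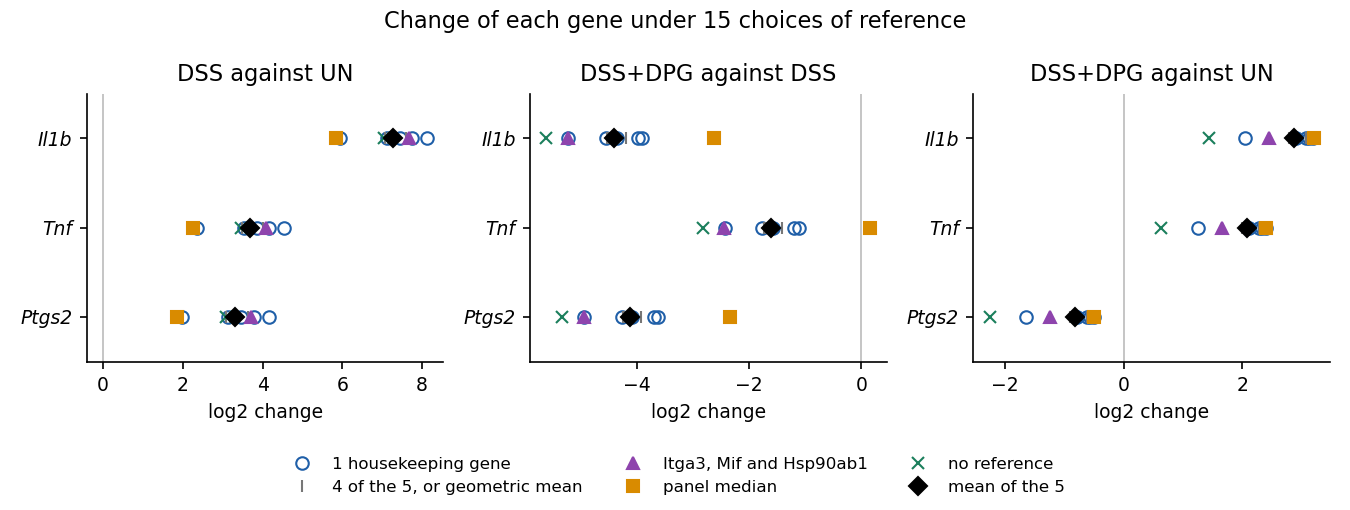
Log2 change of each gene under 15 references in DSS against UN (left), DSS+DPG against DSS (middle) and DSS+DPG against UN (right); the symbol gives the kind of reference, and the grey line is no change. Only the change of Tnf in DSS+DPG against DSS crosses 0, at 0.16 with the panel median.

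The share of the DSS change that was left with DPG set Ptgs2 apart from both cytokines, but did not separate Il1b from Tnf under every reference. Of the log2 rise in DSS, 39.5% was left in DSS+DPG for Il1b and 56.3% for Tnf, while for Ptgs2 the value was -24.8%, since the gene ended below UN. Over the 15 references these shares ran between 20.4% and 54.9% for Il1b, between 18.4% and 107.0% for Tnf and between -83.8% and -13.1% for Ptgs2. With no reference Tnf was at 18.4% and Il1b at 20.4%, so their order turned over. On a linear scale 4.11% of the rise of Il1b was left and 27.0% of that of Tnf, against -4.9% for Ptgs2. These shares are descriptions that use the same DSS and UN arrays in numerator and denominator.

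Differences between the genes on one array need no housekeeping gene. A difference in Ct between genes also holds the unequal efficiency of their assays, so its change between groups is read and not its sign. Unequal efficiency also scales a change and was not measured, so the folds below assume a doubling per cycle and small ones are uncertain. Il1b and Ptgs2 moved apart in colitis and then fell nearly together with DPG. The Ct of Ptgs2 minus that of Il1b was 2.31, 1.87 and 2.18 cycles in DSS+DPG, 2.4 cycles on each DSS array and -1.56, -1.58 and -1.58 cycles in UN. The difference was larger in the groups given DSS than in UN, and DSS+DPG lay just under DSS. In DSS against UN it changed by 3.97 cycles (standard error 0.0067), which means that Il1b rose 15.7-fold more than Ptgs2. The 3 DSS arrays gave the same difference, so standard errors that use them hold no spread from DSS. Between DSS+DPG and DSS the difference changed by -0.28 cycles (standard error 0.13), so Il1b fell 1.21-fold more than Ptgs2. Without DSS+DPG replicate 2 this last change was -0.155, and without DSS+DPG replicate 1 it was -0.375.

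Tnf and Il1b moved apart in colitis and came closer again with DPG, while Tnf and Ptgs2 parted mainly with DPG. The Ct of Tnf minus that of Il1b was 1.03, 1.29 and 1.18 cycles in DSS+DPG, 3.93, 3.96 and 3.97 cycles in DSS and 0.44, 0.33 and 0.34 cycles in UN. DSS arrays stood far above the rest. Il1b rose 11.99-fold more than Tnf in DSS against UN (change 3.58, standard error 0.037) and fell 6.9-fold more in DSS+DPG against DSS (change -2.79, standard error 0.076). The Ct of Tnf minus that of Ptgs2 was -1.28, -0.58 and -1.0 cycles in DSS+DPG, 1.53, 1.56 and 1.57 cycles in DSS and 2.0, 1.91 and 1.92 cycles in UN. Here DSS and UN were close and DSS+DPG stood apart. Tnf rose 1.31-fold more than Ptgs2 in DSS against UN (change -0.39, standard error 0.031), while Ptgs2 fell 5.68-fold more than Tnf in DSS+DPG against DSS (change -2.51, standard error 0.20). Between DSS+DPG and UN, the change was 0.80 (standard error 0.083) for Tnf minus Il1b, 3.69 (standard error 0.13) for Ptgs2 minus Il1b and -2.90 (standard error 0.21) for Tnf minus Ptgs2. In all 9 comparisons of the 3 pairs the arrays of the groups did not overlap, and the exact two-sided permutation p was 0.1 for each, before and after Benjamini-Hochberg adjustment over the 9, the lowest value this design can give. Most single genes of the panel did not overlap either (95.2% in DSS against UN, 90.5% in DSS+DPG against DSS and 93.9% in DSS+DPG against UN). Other pairs of panel genes were not counted, so the lack of overlap does not set these pairs apart.

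**Figure D3:**
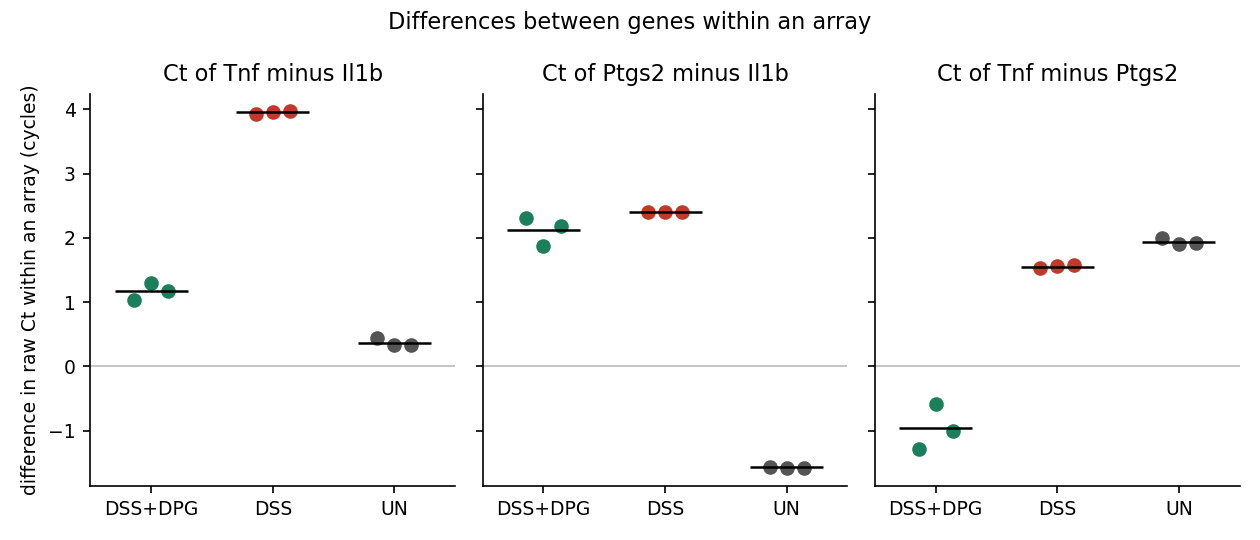
Difference in raw Ct (cycles) between 2 genes on the same array, for Tnf minus Il1b, Ptgs2 minus Il1b and Tnf minus Ptgs2; points are arrays, bars the mean of 3, and the groups run DSS+DPG, DSS and UN from left to right. Tnf minus Il1b was largest in DSS, Ptgs2 minus Il1b was 2.4 on each DSS array and lowest in UN, and Tnf minus Ptgs2 was lowest in DSS+DPG.

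For each member the 3 panel genes with the most similar course were found by the root mean square difference of minus Ct over the 9 arrays, each gene centred on its own mean. Il1b was closest to Csf3, the growth factor of granulocytes (0.54 on the log2 scale), to Il6, an acute-phase cytokine (0.65), and to Il10, a cytokine that restrains macrophages (0.91). Tnf was closest to Ccl7, a monocyte chemokine (0.26), to Timp1, an inhibitor of matrix metalloproteinases (0.32), and to Plaur, the urokinase receptor (0.40). Ptgs2 was closest to Plat, tissue plasminogen activator (0.33), to Vtn, the adhesive protein vitronectin (0.43), and to Mmp9, the gelatinase of neutrophils (0.47). The members were not among one another's closest genes. Tnf was 10th and Ptgs2 13th in likeness to Il1b, at 1.54 and 1.81, and Ptgs2 was 20th in likeness to Tnf, at 1.29.

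The neighbours of each member ended on the same side of UN as that member. Against UN, the log2 change in DSS+DPG was 3.01 for Csf3, 2.48 for Il6 and 3.13 for Il10, beside 2.87 for Il1b. It was 2.26 for Ccl7, 2.04 for Timp1 and 1.16 for Plaur, beside 2.08 for Tnf. It was -1.24 for Plat, -1.84 for Vtn and -0.61 for Mmp9, beside -0.82 for Ptgs2. The measure used these same values, so this is a description. With Pearson's correlation in place of the root mean square difference, 0, 1 and 0 of these 3 genes were again the closest to Il1b, Tnf and Ptgs2.

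**Figure D4:**
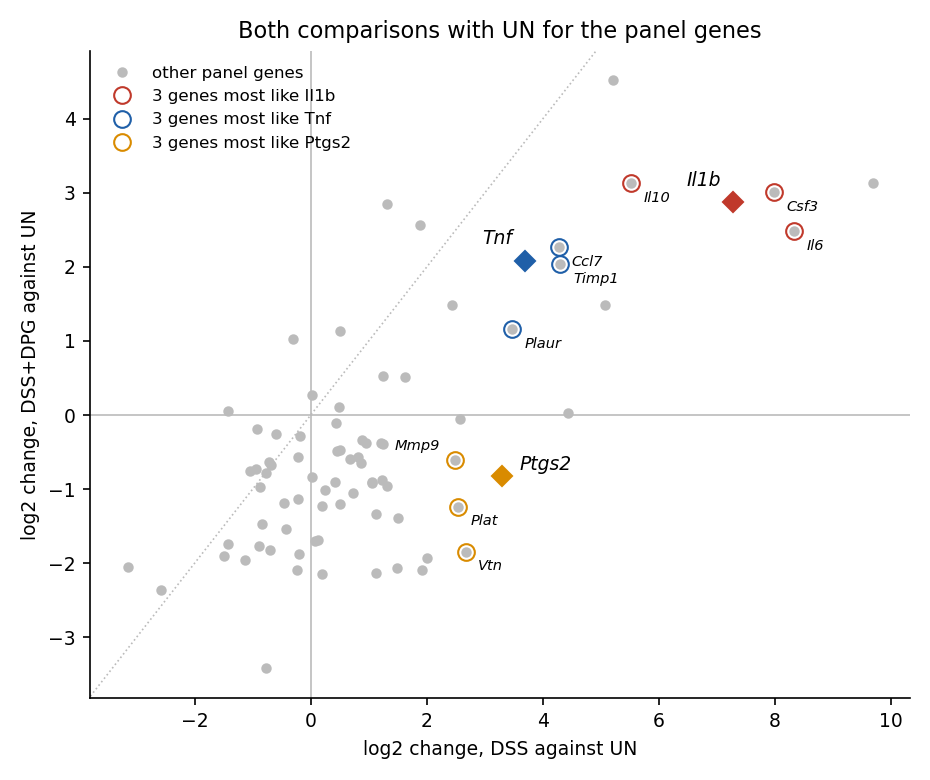
Log2 change of the panel genes in DSS against UN (horizontal) and in DSS+DPG against UN (vertical), which share the UN arrays; diamonds are Il1b, Tnf and Ptgs2, rings the 3 genes most like each, the dotted line marks equal changes, and 2 genes are not shown beside those not tested. Il1b (7.27 and 2.87) and Tnf (3.69 and 2.08) lie below the dotted line and above 0 on the vertical axis, and Ptgs2 (3.30 and -0.82) lies below 0.

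A list was made of 12 other genes of the array that IL-1 or TNF is known to induce, among them chemokines, colony-stimulating factors and proteases. It was chosen with earlier results of these data known and is not complete, so its counts and medians are descriptions only. In DSS against UN 10 of the 12 were higher and 2 lower (61.9% and 29.8% of the panel), with a median log2 change of 3.87 (panel 0.71). The largest rises were those of Cxcl3, a neutrophil chemokine (9.68), Il6 (8.33) and Csf3 (7.98). The 2 that fell were Csf2, the growth factor of granulocytes and macrophages (-1.43, adjusted p = 0.00327 in limma), and F3, tissue factor (-0.22, adjusted p = 0.00202). Relative to DSS, 11 of the 12 were lower in DSS+DPG and 1 higher (76.2% and 13.1% of the panel), with a median of -2.85 (panel -1.30). Cxcl3 fell most (-6.55), and Csf2 was the one that rose (1.48).

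Relative to UN, these genes lay on both sides with DPG, as the members did. Of the 12, 6 were higher in DSS+DPG than in UN, 3 were lower and 3 did not pass (22.0% and 69.5% of the panel higher and lower), with a median of 0.61 (panel -0.69), which was below 0 with B2m alone (-0.23) or with no reference (-0.84). With only genes whose every Ct was below 35, 4 were higher and 3 lower, and the median was 0.043. The split depended on the reference too, with 6 higher and 6 lower for B2m alone, 4 higher and 7 lower with no reference and 8 higher and 2 lower without B2m. Those above UN were Cxcl3 (3.13), Csf3 (3.01), Il6 (2.48), Ccl7 (2.26), Cxcl5 (1.48) and Plaur (1.16). Those below UN were F3 (-1.14), Mmp9 (-0.61) and Plau, the urokinase (-0.60). With the reference of 5 genes, Ccl12, a monocyte chemokine, differed by -0.05 (adjusted p = 0.448 in limma), Cxcl1, a neutrophil chemokine, by 0.033 (adjusted p = 0.751) and Csf2 by 0.053 (adjusted p = 0.872).

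**Figure D5:**
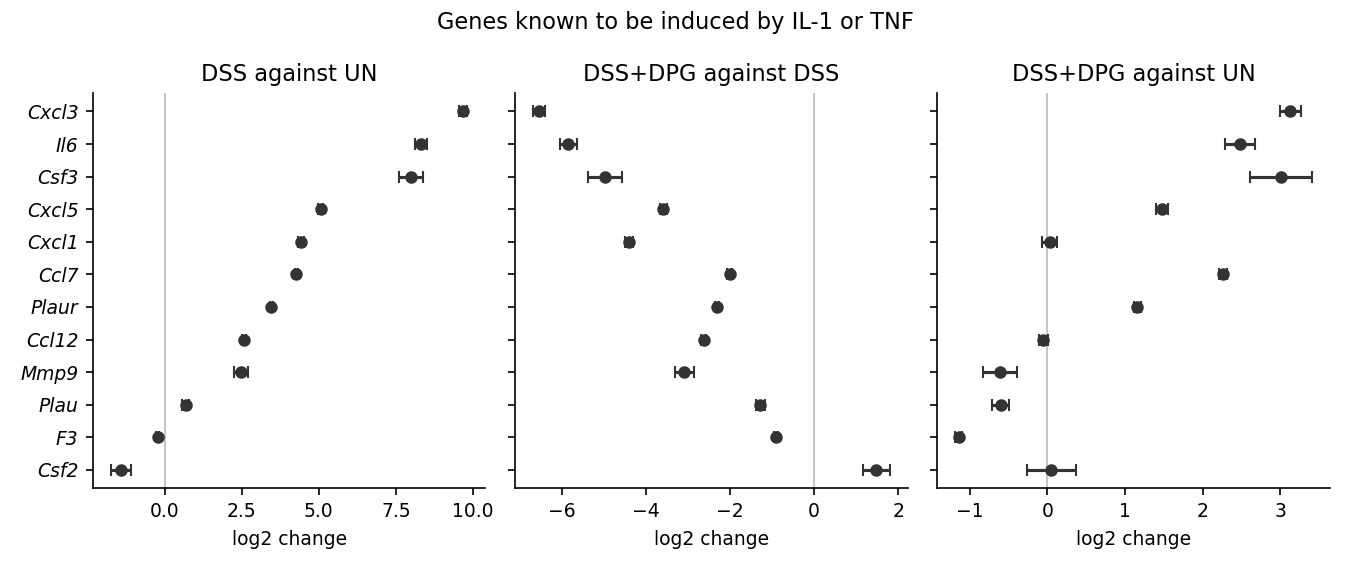
Log2 change of the 12 listed genes known to be induced by IL-1 or TNF in DSS against UN (left), DSS+DPG against DSS (middle) and DSS+DPG against UN (right); points are limma estimates from 3 arrays per group and error bars their standard errors. Relative to UN, 6 genes lie above 0 past the test, and Cxcl1, Ccl12 and Csf2 lie near 0 with the reference of 5 housekeeping genes; other references move all points of a plot alike.

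Of 3 cytokines known to restrain the making of IL-1 beta and TNF by macrophages, all were higher in DSS than in UN (61.9% of the panel), with log2 changes of 5.52 for Il10, 1.24 for Tgfb1 and 1.06 for Il4. All 3 were lower in DSS+DPG than in DSS (76.2% of the panel), by -2.40 for Il10, -0.71 for Tgfb1 and -1.98 for Il4. Against UN, Il10 (3.13) and Tgfb1 (0.53) were higher in DSS+DPG (22.0% of the panel) and Il4 (-0.92) was lower (69.5%). The median of the 3 was 1.24 in DSS against UN, -1.98 in DSS+DPG against DSS and 0.53 in DSS+DPG against UN, and the first and the last of these changed sign under other references (-0.093 with B2m alone in DSS against UN, -0.30 with B2m alone in DSS+DPG against UN).

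A further 4 genes encode signalling proteins that act below cytokine receptors and are controlled largely by modification. Of these, 1 was higher and 3 were lower in DSS against UN (61.9% and 29.8% of the panel). Among them were Rac1 (-1.14), a small GTPase, and Mapk3 (-0.93), a MAP kinase, while Stat3 (0.43), the transcription factor below the IL-6 receptor, was the one that rose. Between DSS+DPG and DSS, 2 rose and 2 fell (13.1% and 76.2% of the panel), with Mapk3 (0.74) higher and Stat3 (-0.54) and Rac1 (-0.81) lower. The median was -0.16, and its sign depended on the reference (0.34 with B2m alone). Against UN, 3 were lower in DSS+DPG (69.5% of the panel), among them Mapk3 (-0.19) and Rac1 (-1.95), and Stat3 differed by -0.11 (adjusted p = 0.0546 in limma).

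The summed level of myeloid markers was highest in DSS as well. The array holds no gene particular to colon, so the tissue itself could not be checked. Of 4 neutrophil and macrophage markers (F13a1, Mmp9, Plaur and Ctsg), 3 were higher in DSS than in UN (61.9% of the panel) and 1 did not pass. Between DSS+DPG and DSS 3 fell (76.2% of the panel) and 1 did not pass. In DSS+DPG against UN 1 of 3 tested was higher and 2 lower (22.0% and 69.5% of the panel). Mmp9 and Plaur are also among the 12 listed response genes and among the genes closest to Ptgs2 and Tnf, so this list is not independent of those results. Their summed level, in thousandths of the housekeeping mean, was 30.8 to 32.1 in DSS+DPG, 149.5 to 153.0 in DSS and 34.8 to 36.0 in UN. Ctsg, cathepsin G of neutrophils, was at the limit of 38 cycles on all DSS+DPG arrays, on 2 of 3 DSS arrays and on all UN arrays. The sum was highest in DSS under all 15 references. Its log2 difference between DSS+DPG and UN was -0.16 and ran between -1.6 and 0.17 over the references, above 0 under 5 of them, so no direction is read from it, and within the list Plaur was higher (1.16) in DSS+DPG than in UN. The part of these cells in the changes of the 3 genes was not tested.

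The other marker lists took other courses. The sum of 4 T cell genes (Cd40lg, Ifng, Il2 and Il4) was 5.09 to 6.09 in DSS+DPG, 8.62 to 8.85 in DSS and 0.983 to 1.15 in UN. The sum stayed above UN with DPG under all 15 references, but not every gene of the list did. All 4 were higher in DSS than in UN (61.9% of the panel), and 3 were lower and 1 higher in DSS+DPG than in DSS (76.2% and 13.1%). Against UN 2 were higher in DSS+DPG (22.0% of the panel), Ifng (4.52) and Cd40lg (2.85). Il4 was lower (-0.92, 69.5% of the panel lower), and Il2 did not pass (0.52, adjusted p = 0.0658 in limma). Il2 was at the limit of 38 cycles on 2 of 3 DSS+DPG arrays. The sum of 4 fibroblast collagens was 959.8 to 999.2 in DSS+DPG, 8479 to 9082 in DSS and 3467 to 3538 in UN, with the same order as Ptgs2, although in DSS against UN the difference was above 0 under 13 of the 15 references. Each of the 4 was called higher in DSS than in UN (61.9% of the panel) and lower in DSS+DPG relative to DSS (76.2% of the panel), but the rise of Col1a2 was only 0.12. Against UN, 3 were lower in DSS+DPG (69.5% of the panel), and Col1a1 did not pass (0.10, adjusted p = 0.133 in limma). The sum changed by 1.32 in DSS against UN and by -3.15 in DSS+DPG against DSS, near the 1.48 and -3.55 of Col3a1. Col1a1 changed by 0.49 and -0.39, so the order of the sum is not that of each collagen. The sum of 4 epithelial genes was 452.1 to 458.9 in DSS+DPG, 431.6 to 455.3 in DSS and 682.7 to 752.1 in UN, and that of 3 smooth muscle genes was 1394 to 1439 in DSS+DPG, 2440 to 2554 in DSS and 4574 to 6058 in UN. Both sums were highest in UN, except that with Hsp90ab1 alone as reference the epithelial sum was higher in DSS than in UN by 0.16 on the log2 scale. Of the epithelial genes 2 were higher, 1 lower and 1 did not pass in DSS against UN (61.9% and 29.8% of the panel higher and lower). In DSS+DPG against DSS 2 were higher and 2 lower (13.1% and 76.2%), and in DSS+DPG against UN 1 was higher and 3 lower (22.0% and 69.5%). All 3 smooth muscle genes were lower in DSS (29.8% of the panel) and in DSS+DPG (69.5%) than in UN. The part of these cells in the changes of Il1b, Tnf and Ptgs2 was not tested.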

How the data were processed

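RNA (1 µg) from the pooled colon of 5 mice per group was reverse transcribed and run on a PCR array for 40 cycles, 3 arrays per pool. Raw Ct values per well, which are on a log2 scale and not normalized, were deposited by the authors together with group averages from the manufacturer's online software (version not given in the sources used here). Of these, the authors' mean Ct and mean delta Ct (log2) were read only to find the deposited reference, and the authors' fold changes and p-values were not used. Samples were grouped by their labels.

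A Ct that was missing or above 38 was set to 38. The reference of an array was the arithmetic mean of its Gapdh, Actb, Hsp90ab1, Gusb and B2m Ct, and delta Ct was taken against it. The 9 arrays entered 1 limma fit of minus delta Ct (limma 3.58.1, R 4.3.3). P-values were adjusted by Benjamini-Hochberg over 84 genes, or 82 in DSS+DPG against UN, since 2 genes stayed at the limit in both of those groups. A gene was called at an adjusted p under 0.05. As a check of pairing over 73 genes, deviations from the group means of arrays with the same replicate number correlated at 0.381, 0.342 and 0.225 between DSS and UN, at 0.061, 0.078 and -0.119 between DSS+DPG and DSS and at 0.14, 0.172 and -0.076 between DSS+DPG and UN, while arrays with different numbers correlated between -0.384 and 0.121. By the rule that every pair lie above 0.1, the numbers paired the DSS and UN arrays only, and the labels give no source of pairing. Differences between genes on an array and housekeeping genes were compared by exact permutation tests (Python 3.11.15, scipy 1.17.1), figures were drawn with matplotlib 3.10.9, and the fit was tested on simulated data. The precision is limited by 3 arrays per group.

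The members and lists were chosen with earlier results of these data known. The genes named are the members, the 3 closest to each, the members of the lists and the housekeeping genes. The results of 2 panel genes are not reported here, although they are in every count. Promoters came from a RefSeq table (GRCm38.p6), in which 3 of 3 members matched. The alternatives were other references and Ct limits, a filter on late genes, the t-test that the deposited tables name, a fit of only the groups compared, a replicate block, unadjusted p, leaving out arrays, and limma with a trend.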

Additional observations from a re-analysis of the deposited data

How the results depend on the processing

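Of the 288 values of the 3 members' log2 changes under alternative settings, 287 kept their direction and their side of the threshold. The exception was the fall of Tnf with DPG when the panel's median Ct was the reference (0.16, adjusted p = 0.0665 in limma). Many of the settings, such as the Ct limits, the block and unadjusted p, cannot move a member's log2 change and bear only on its p-value. Leaving out an array drops only a repeat of the same pool. The count is therefore not a measure of robustness between mice. The medians of 3 gene lists also changed sign under other references. For the IL-1 and TNF response genes in DSS+DPG against UN the median was -0.23 with B2m alone and -0.84 with no reference. For the counter-regulatory cytokines it was -0.093 with B2m alone and -0.21 with the panel median in DSS against UN, and -0.30 with B2m alone and -0.91 with no reference in DSS+DPG against UN. For the 4 signalling genes in DSS+DPG against DSS it was 0.047 without Hsp90ab1, 0.26 with Actb alone, 0.34 with B2m alone and 1.61 with the panel median. These references differ from the main one by a shift common to all genes of an array, which is how they move a change.

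With a replicate block, 77, 75 and 76 panel genes passed in the 3 comparisons (77, 75 and 75 without it), and all 9 changes of the members still passed, with 0.000348 as the highest adjusted p, so the block changed no call of a member. Leaving out 1 array at a time gave 7.27 to 7.28, -4.41 to -4.39 and 2.86 to 2.88 for Il1b, 3.65 to 3.71, -1.67 to -1.55 and 2.02 to 2.14 for Tnf, and 3.29 to 3.31, -4.25 to -4.01 and -0.94 to -0.71 for Ptgs2, in DSS against UN, DSS+DPG against DSS and DSS+DPG against UN. With the t-test of linear levels that the deposited tables name, 73 panel genes passed in each comparison after Benjamini-Hochberg adjustment, and all 9 changes of the members were among the calls. All 3 members lay far from the Ct limit, so limits of 35 and 40 did not change their values.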
